A study of Mus musculus with 12 samples.

Results

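The cytochrome P450 genes of the mouse were followed across medullary thymic epithelial cells (mTECs) with and without Aire, and with and without Brg1. All genes whose symbol is Cyp followed by a family number and a subfamily letter were taken, which gave 97 of the 22154 genes measured on the array. Each gene was read from the probe set that was brightest on average over the 12 arrays, and values are log2 intensities. All 97 genes were matched to RefSeq by their Entrez identifier, and 4 have a pseudogene symbol. RefSeq also lists Cyp2d13 as a transcribed pseudogene, although its symbol does not show it. By role, 59 belong to the Cyp1, Cyp2 and Cyp3 families that oxidise drugs, toxins and steroids, 20 to the fatty acid hydroxylases of the Cyp4 family, 5 to steroid hormone synthesis, 9 to bile acid, cholesterol and vitamin D metabolism and 3 to retinoic acid breakdown, and Cyp20a1 has no settled role. The arrays were single-channel Affymetrix arrays, hybridised with biotin-labelled material from sorted cells of C57BL/6 mice aged 4 weeks. Live cells were gated as Epcam+ and CD45-negative, then as UEA+ with little Ly51, and were split by MHC class II into a high fraction (mTEChi, the mature mTECs) and a low fraction (mTEClo). The 8 groups were Aire+/+, Aire-/-, Brg1+/+ and Brg1-/- in each fraction, with 2 arrays for each mTEChi group and 1 array for each mTEClo group. Brg1, encoded by Smarca4, drives SWI/SNF chromatin remodelling with its ATPase, and the labels do not state how or in which cells either gene was deleted. Whether the replicates are separate animals is not labelled, so the p-values reflect the spread between these samples alone, and that spread may be technical.

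Cytochrome P450 enzymes are heme proteins that insert an oxygen atom into a substrate with electrons from a partner reductase. Most are made in liver, adrenal gland, gonad, intestine, lung or olfactory mucosa, and many mouse genes of the Cyp2 and Cyp3 families lie in clusters of close copies. The thymic medulla transcribes many genes of such peripheral tissues, a large share of them under the control of Aire, and so displays their products to developing T cells. People who lack working AIRE often form autoantibodies to P450 enzymes, among them CYP1A2 and CYP2A6 of the liver and CYP17A1, CYP11A1 and CYP21A2 of the adrenal cortex and gonads. Cyp2a5 is the mouse counterpart of CYP2A6. The mTEChi fraction holds most cells that express Aire.

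The promoters printed here are those of the P450 genes that passed a limma test for Aire loss or between the fractions, with or without the block on array number that is described with the results, because several of them share a feature that the choice of members did not use. Cyp17a1, which also passed, had no entry. The sequences are the 80 bases before the annotated start, 5′ to 3′ on the coding strand, from RefSeq on GRCm38.p6, and capitals mark the motif TATAA. Each line gives a gene, its position and strand, and the sequence.
Cyp1a2, chr9:57683656-57683735, minus strand: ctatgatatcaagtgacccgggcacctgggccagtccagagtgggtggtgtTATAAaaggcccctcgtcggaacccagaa
Cyp1a1, chr9:57697533-57697612, plus strand: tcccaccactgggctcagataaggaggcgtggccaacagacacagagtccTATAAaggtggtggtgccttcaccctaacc
Cyp2d9, chr15:82452297-82452376, plus strand: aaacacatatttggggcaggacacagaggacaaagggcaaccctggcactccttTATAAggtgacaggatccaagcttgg
Cyp2d10, chr15:82407195-82407274, minus strand: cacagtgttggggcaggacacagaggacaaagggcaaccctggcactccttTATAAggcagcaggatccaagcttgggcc
Cyp2d26, chr15:82794246-82794325, minus strand: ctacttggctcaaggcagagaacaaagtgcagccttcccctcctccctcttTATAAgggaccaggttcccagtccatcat
Cyp2a5, chr7:26835259-26835338, plus strand: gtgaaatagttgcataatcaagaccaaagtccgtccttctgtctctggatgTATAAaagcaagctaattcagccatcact
Cyp2a4, chr7:26307112-26307191, plus strand: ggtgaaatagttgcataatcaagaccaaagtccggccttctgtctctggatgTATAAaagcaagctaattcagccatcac
Cyp3a13, chr5:137921620-137921699, minus strand: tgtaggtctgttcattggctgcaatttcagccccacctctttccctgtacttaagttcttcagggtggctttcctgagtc
Cyp3a25, chr5:146009619-146009698, minus strand: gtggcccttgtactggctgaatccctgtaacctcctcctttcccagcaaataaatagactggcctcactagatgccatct
Cyp3a44, chr5:145805875-145805954, minus strand: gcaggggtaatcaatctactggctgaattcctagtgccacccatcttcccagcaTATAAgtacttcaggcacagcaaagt
Cyp2c37, chr19:39992344-39992423, plus strand: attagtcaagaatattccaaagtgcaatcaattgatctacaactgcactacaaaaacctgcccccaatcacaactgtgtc
Cyp20a1, chr1:60343220-60343299, plus strand: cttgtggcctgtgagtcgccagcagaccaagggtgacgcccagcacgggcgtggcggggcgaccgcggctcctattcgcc
Cyp26a1, chr19:37697728-37697807, plus strand: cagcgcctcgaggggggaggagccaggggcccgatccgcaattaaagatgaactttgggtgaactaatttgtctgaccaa
Cyp1a1 is shown as the neighbour and closest relative of Cyp1a2, and Cyp2a4 as the near copy of Cyp2a5.

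Of the 97 genes, 71 had a promoter entry of 300 bases, and for a gene with several entries the first was read. Motifs were searched in the 80 bases before the start. TATAA stood there on the coding strand of 24 of the 71 P450 genes (33.8%), against 7.01% of the 27025 genes in the table and 7.5% of its 17492 protein-coding genes. On either strand the shares were 36.6% for P450 genes, 9.14% for all genes and 9.18% for protein-coding genes. A TATAA whose first base lay 25 to 35 bases before the start was found in 17 P450 genes (23.9%) and in 3.27% of all genes. The median number of CG dinucleotides in the whole 300 bases was 3 for P450 genes, 7 for all genes and 13 for protein-coding genes, and the entry of Cyp26a1 held 26. GCGTG, the core motif bound by the aryl hydrocarbon receptor, was searched on both strands of the 80 bases and was in 10 P450 genes (14.1%), among them Cyp1a1, and in 13.2% of all genes and 16.3% of protein-coding ones. TATAA and GCGTG cannot overlap each other, whereas TATAA can overlap its own reverse complement. Matches are descriptions of the letters in these windows, not of bound sites.

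Close copies matter for how the values can be read. Within 300 bases of promoter, Cyp2a5 and Cyp2a4 were identical at 294 of 299 aligned positions (98.3%), and Cyp2d9 and Cyp2d10 at 222 of 297 (74.7%). Cyp1a2 and Cyp1a1 matched at 89 of 298 positions (29.9%). How far the probes of Cyp2a, Cyp2c, Cyp2d, Cyp3a and Cyp4a genes also bind transcripts of their close copies is not known here, so differences between such copies are uncertain. The genes Cyp2d11 and Cyp2d10, Cyp3a11 and Cyp3a25, Cyp26c1 and Cyp26a1, and Cyp1a2 and Cyp1a1 are direct neighbours in the annotation.

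The median log2 value of an array was 5.07 to 5.32. Aire itself stood at 8.04 and 8.80 on the wild-type mTEChi arrays of its line and at 9.01 and 9.73 on the Aire-/- ones, so it was not lower in the arrays labelled as knockouts. The position of this probe set relative to the deleted part is not known here, so it does not check the labels, and group names below are those of the labels. Smarca4 stood at 6.13 and 6.89 with Brg1 in mTEChi and at 5.88 and 5.44 without it. The mTEC markers Epcam and Cd80 were bright, with Epcam between 8.41 and 9.29 over the 12 arrays and Cd80 between 8.96 and 10.45 in mTEChi against 6.18 to 6.96 in mTEClo. Of 12 measured mTEC markers, 3 were called higher by limma in wild-type mTEChi than in mTEClo (1.93% of all genes) and 0 lower (0.632%). The MHC class II genes H2-Aa and H2-Ab1 differed by 1.00 and 0.35 and did not pass. Krt14 and Epcam were lower in mTEChi, by -0.90 and -0.45, and did not pass either. Since these are bulk samples, fewer cells that express a gene and less RNA per cell cannot be told apart.

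Most P450 probe sets were dim. The mean over 12 arrays had a median of 4.81 across the P450 genes and of 5.43 across all genes, and 52 of the 97 had a mean under 5. No detection call was used, so the level at which a probe set stands above background is not known, and differences of dim probe sets are compressed. No gene was left out for a low value. The 10 genes with the highest means were Cyp2g1, an enzyme of the olfactory mucosa, Cyp2a4, Cyp3a25, the oxysterol hydroxylase Cyp7b1, Cyp2j9, Cyp2d26, Cyp2a22, Cyp17a1, Cyp1a2 and Cyp2a5. Among these, Cyp2g1 ranged from 6.16 to 8.53, Cyp7b1 from 6.39 to 7.31 and Cyp2j9 from 5.99 to 7.78 over the arrays. Cyp17a1, by contrast with Cyp7b1, spanned 4.47 to 7.83, with all 4 mTEClo arrays at or under 5.87 and all 8 mTEChi arrays at or above 6.52.

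In mTEChi, loss of Aire went with a 4.89-fold lower level of Cyp1a2, the caffeine-oxidising liver enzyme, while the share of P450 genes called was near that of all genes. Cyp2d10 and Cyp2d26, of a subfamily of drug and steroid oxidases, stood 3.93-fold and 2.19-fold lower, and Cyp26a1, which degrades retinoic acid, stood 3.42-fold higher. These 3 passed with the block on array number alone. The comparison asks which P450 genes depend on Aire in mature mTECs. It was made with limma over all 22154 genes, with Benjamini-Hochberg adjustment at 0.05. Of the 97 P450 genes, 1 fell, Cyp1a2 (1.03%), where 0.772% of all genes fell, and 0 rose, where 0.0226% of all genes rose. By unadjusted p under 0.05, 12 were lower (3.94% of all genes) and 1 was higher (1.52%).

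The array numbers 1 and 2 were treated as pairing the mTEChi samples, since same-numbered arrays deviated together in every pair of groups. A limma fit with the array number within each line as a block called 3 P450 genes lower (Cyp1a2, Cyp2d10 and Cyp2d26, 3.09% of them, where 2.1% of all genes were called) and 1 higher (Cyp26a1, where 0.298% were called). It changes the error, not the estimate, of these differences. Log2 medians describe the whole list: the median difference was -0.17 over the P450 genes and 0.06 over all genes, and 64 of 97 P450 genes lay below 0, as did 9087 of 22154 genes. At least 2-fold lower were 10 P450 genes (10.3% of them, against 3.44% of all genes), and at least 2-fold higher was 1 (1.03%, against 0.65%). On arrays that did not overlap between genotypes, 24 P450 genes were lower (24.7%, against 11.6% of all genes) and 5 were higher (5.15%, against 15.9%).

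**Figure D1:**
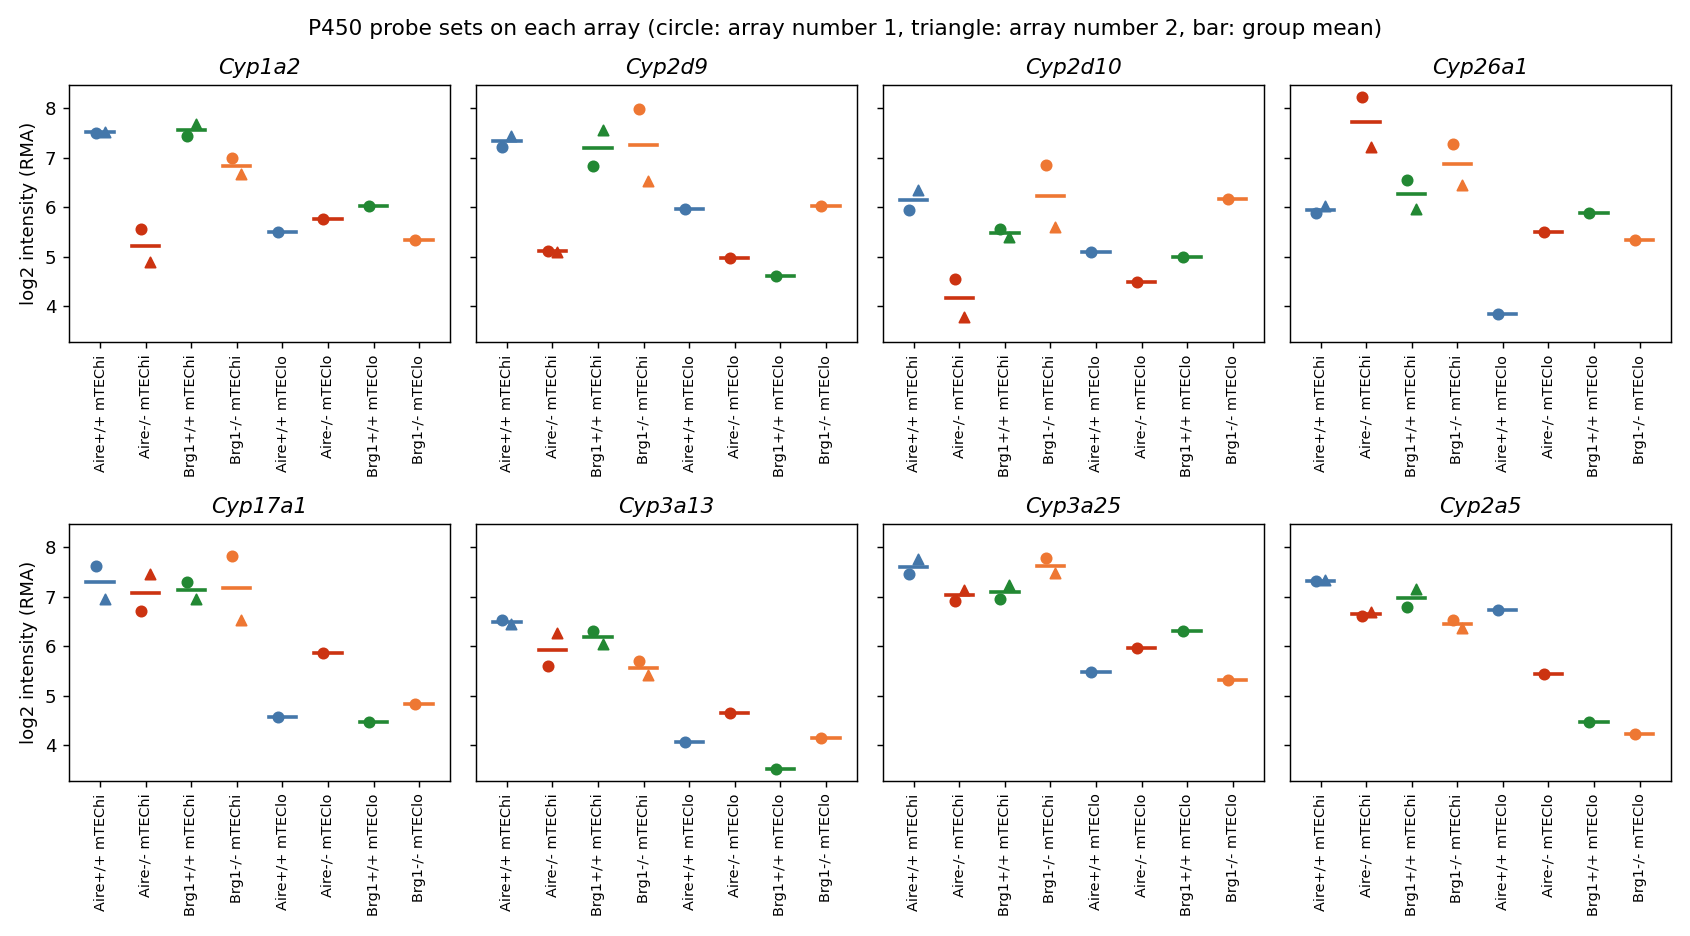
Log2 intensity (RMA) of 8 P450 probe sets on each of the 12 arrays, by genotype and fraction. Circles are arrays numbered 1, triangles arrays numbered 2, and bars group means. Cyp1a2 and Cyp2d9 lie above 6.5 in each mTEChi array except the 2 Aire-/- arrays, where both lie under 5.6.

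The Cyp1a genes differed within the family. Cyp1a2 read 7.50 and 7.53 with Aire and 5.56 and 4.89 without it. Both knockout arrays lay below both wild-type arrays. The mTEClo arrays read 5.34 to 6.03, so 1 knockout array lay within their range and the other below it. The log2 difference was -2.29 (SE 0.296, n = 2 and 2, limma adjusted p = 0.018, and 0.00473 with the block). Leaving out one array at a time kept the difference between -2.63 and -1.96, but the call was lost in 3 fits: when Aire+/+ replicate 1 was left out (limma adjusted p = 0.131), when Aire+/+ replicate 2 was (0.133) and when Aire-/- replicate 2 was (0.123). Cyp1a1, its inducible neighbour, read 5.54 and 5.02 against 5.25 and 4.90, with overlapping arrays and a log2 difference of -0.21 (SE 0.296). Cyp1b1, an enzyme of tissues outside the liver, differed by -0.29 (SE 0.261).

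In the Cyp2d subfamily, the mouse genes related to human CYP2D6, 9 of 10 measured genes lay below 0 in log2 difference, with a median of -0.45. Cyp2d9, a testosterone hydroxylase of male liver, read 7.22 and 7.45 with Aire and 5.12 and 5.10 without it. The 2 genotypes were more than 2 log2 units apart and the replicates within 0.23 of each other. The difference of -2.23 (SE 0.478) had a limma adjusted p of 0.139, of 0.0617 with the block within each line and of 0.0409 with a block common to both lines. Cyp2d10 read 5.94 and 6.36 against 4.56 and 3.79, a difference of -1.98 (SE 0.451, limma adjusted p = 0.173, and 0.0376 with the block). Cyp2d26 read 7.15 and 6.52 against 5.98 and 5.43, a difference of -1.13 (SE 0.434, limma adjusted p = 0.766, and 0.0396 with the block). In both genes each knockout array lay below each wild-type array. Cyp2d11 and Cyp2d40 were also lower on arrays that did not overlap, by -0.99 and -0.26. Cyp2d12, Cyp2d13, Cyp2d22, Cyp2d34 and Cyp2d37-ps overlapped between genotypes, with differences between -0.53 and 0.035.

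The Cyp2c subfamily holds arachidonic acid epoxygenases and steroid hydroxylases, and 12 of its 15 measured genes lay below 0, with a median of -0.37. Cyp2c69 read 5.55 and 3.98 with Aire and 3.65 and 2.77 without it, a difference of -1.56 (SE 0.624, limma adjusted p = 0.821). The wild-type arrays were 1.57 apart, so the spread within the genotype was as large as the difference. Cyp2c29, an epoxygenase of mouse liver, read 5.16 and 5.01 against 4.06 and 3.57, a difference of -1.27 (SE 0.592). Its second probe set, which is dimmer, differed by -0.32. Cyp2c65, an intestinal member, had overlapping arrays, with 4.46 and 5.56 against 4.69 and 2.90. No Cyp2c gene passed with or without the block.

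Of the 7 Cyp3a genes, the main drug and steroid oxidases of liver and gut, 6 lay below 0, with a median of -0.55. Cyp3a44, a liver form of female mice, read 5.06 and 4.88 with Aire and 3.36 and 3.20 without it. The arrays did not overlap and the replicates lay within 0.18 of each other. The difference of -1.69 (SE 0.510) had a limma adjusted p of 0.441, and it passed (0.0397) when either Brg1+/+ replicate was left out of the shared error estimate. Cyp3a25 read 7.45 and 7.77 against 6.92 and 7.13, and Cyp3a13 read 6.52 and 6.44 against 5.59 and 6.27, with differences of -0.59 and -0.55. Cyp3a11, the main form of mouse liver, went the other way by 0.34 on overlapping arrays. Cyp3a16 and Cyp3a57 overlapped, and Cyp3a59 was lower by -0.41 without overlap.

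All 4 Cyp2a genes lay below 0, with a median of -0.49. Cyp2a5 read 7.31 and 7.33 with Aire and 6.60 and 6.68 without it, a difference of -0.68 (SE 0.240, limma adjusted p = 0.642) on arrays that did not overlap. Its near copy Cyp2a4 read 7.38 and 7.90 against 6.64 and 7.39, so that the higher knockout array passed the lower wild-type array. The Cyp2b and Cyp2j genes, 5 and 7 in number, both had a median of -0.045, and none reached a 2-fold difference. The olfactory Cyp2g1 differed by -0.76 (SE 0.568), and Cyp2e1, which oxidises ethanol, by -0.47 (SE 0.564), both on overlapping arrays.

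Fatty acid hydroxylases of the Cyp4 family did not shift together: 8 of 20 lay below 0 and the median was 0.03. The pseudogene Cyp4b1-ps2 had the largest difference of all P450 genes. It read 4.68 and 8.13 with Aire and 2.97 and 3.12 without it, a difference of -3.36 (SE 1.08, limma adjusted p = 0.524). One wild-type array stood 3.45 above the other, and without it the difference was -1.64. Cyp4f18, a leukotriene hydroxylase of myeloid cells, read 6.39 and 5.86 against 5.31 and 5.61, a difference of -0.67 (SE 0.269). The 6 Cyp4a genes had a median of 0.17 and the 10 Cyp4f genes one of -0.035.

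Of the 5 genes of steroid hormone synthesis, 4 lay below 0 without Aire and 1 above, with a median of -0.21, and 0 passed with or without the block. Cyp11a1, which cleaves the side chain of cholesterol in the first step of all steroid hormones, read 5.90 and 6.15 with Aire and 5.14 and 4.84 without it, a difference of -1.04 (SE 0.419, limma adjusted p = 0.833). The arrays did not overlap, but the second Cyp11a1 probe set, which is dimmer, differed by -0.05, so the probe sets disagree. Cyp11b1, of glucocorticoid synthesis, read 4.95 and 5.44 against 4.71 and 4.65. Cyp17a1, which makes precursors of androgens, read 7.62 and 6.96 against 6.71 and 7.45, a difference of -0.21 (SE 0.486) on overlapping arrays. Cyp21a1, the steroid hydroxylase of the adrenal cortex, read 4.80 and 4.40 against 4.67 and 4.26, and the aldosterone synthase Cyp11b2 differed by 0.43.

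Genes of bile acid, cholesterol and vitamin D metabolism differed by -0.29 to 0.74. The largest difference was that of Cyp2r1, a vitamin D hydroxylase, which read 4.68 and 4.66 with Aire and 5.65 and 5.16 without it (0.74, SE 0.614). Cyp7a1, the rate-limiting enzyme of bile acid synthesis, read 3.60 and 2.92 against 3.35 and 2.96. Cyp24a1, which inactivates vitamin D, was lower by -0.29 on arrays that did not overlap. Cyp27b1, Cyp39a1, Cyp46a1, Cyp7b1, Cyp8b1 and Cyp27a1 all had overlapping arrays.

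Among the 3 retinoic acid hydroxylases, Cyp26a1 read 5.88 and 6.03 with Aire and 8.24 and 7.22 without it. Both knockout arrays lay above both wild-type arrays, and above every other array of the series except Brg1-/- mTEChi replicate 1, at 7.28. The difference of 1.78 (SE 0.432) had a limma adjusted p of 0.219, and of 0.0278 with the block. Within array number 1 it was 2.36 and within number 2 it was 1.19. Cyp26c1, its neighbour in the genome, read 4.20 and 4.50 against 4.56 and 4.57, and Cyp26b1 differed by 0.08.

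**Figure D2:**
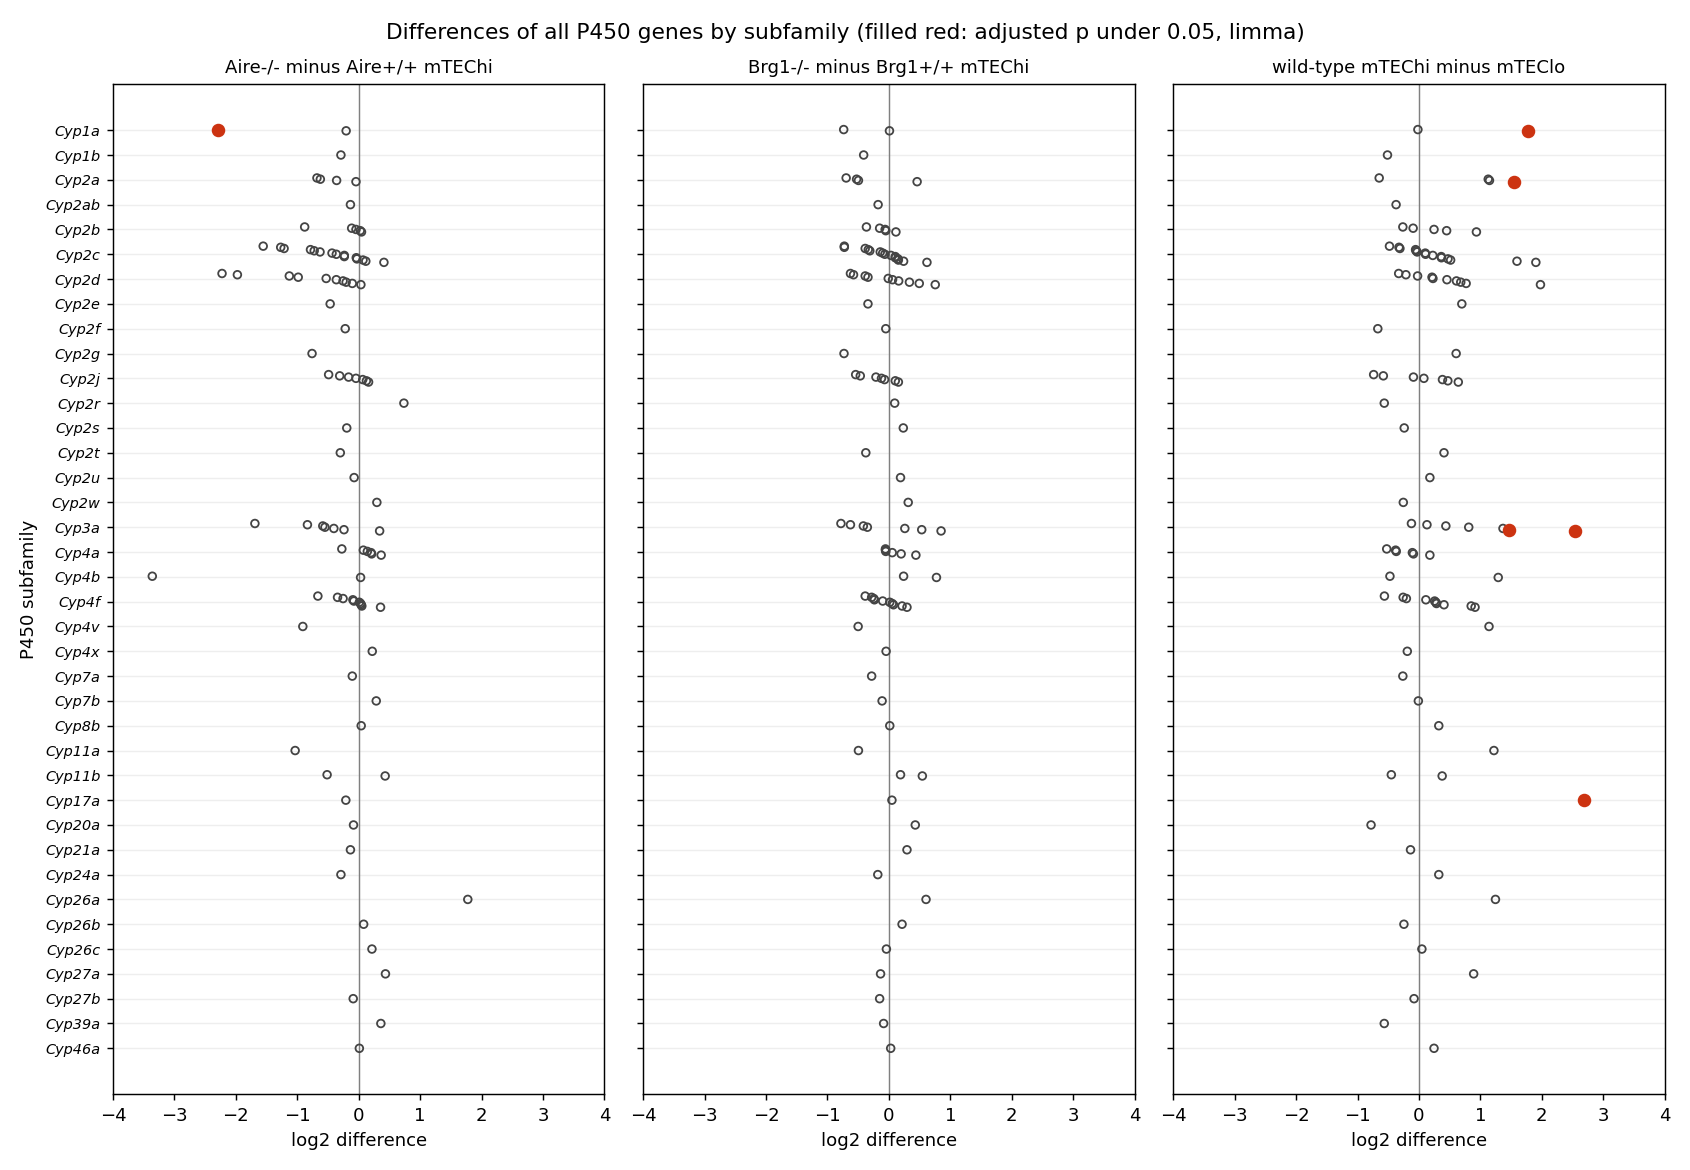
Log2 difference of each of the 97 P450 genes, by subfamily, for Aire loss in mTEChi, Brg1 loss in mTEChi and wild-type mTEChi against mTEClo. Filled red points passed limma's test at an adjusted p under 0.05 (1, 0 and 5 genes), and open points did not.

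With Aire and Brg1 intact, mature mTECs held more transcript of several steroid and drug P450 genes than mTEClo. Cyp17a1 was 6.46-fold higher, Cyp3a13 5.84-fold, Cyp1a2 3.42-fold, Cyp2a5 2.92-fold and Cyp3a25 2.76-fold. The comparison took the mean of the Aire+/+ and the Brg1+/+ difference, with 4 mTEChi and 2 mTEClo arrays. Each mTEClo group had 1 array, so its SE and p-values hold the spread of mTEChi replicates only, not that between mTEClo arrays. By limma, 5 P450 genes were higher, where 1.93% of all genes were, and 0 were lower, where 0.632% of all genes were. At an unadjusted p under 0.05, 15 were higher (6.93% of all genes) and 2 were lower (5.89%). With the block within each line, 9 were higher (4.43% of all genes) and 1 was lower (2.49%). On arrays that did not overlap, 22 were higher (22.7%, against 11.4% of all genes) and 6 were lower (6.19%, against 17.7%). The median difference was 0.18 over the P450 genes and -0.10 over all genes. At least 2-fold higher were 15 P450 genes (15.5%, against 4.99%), and 0 were 2-fold lower (against 3.05%).

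Cyp17a1 read 7.62, 6.96, 7.30 and 6.95 in the wild-type mTEChi arrays and 4.56 and 4.47 in the wild-type mTEClo arrays. The fractions were separated by more than 2 log2 units, and the difference was 2.69 (SE 0.421, limma adjusted p = 0.0199). The call was lost without Aire+/+ replicate 1 (limma adjusted p = 0.0573) or without Brg1+/+ replicate 1 (0.0544), with differences of 2.53 and 2.61. Within lines, mTEChi exceeded mTEClo by 2.73 in Aire+/+, 1.21 in Aire-/-, 2.66 in Brg1+/+ and 2.36 in Brg1-/-. The lower value in Aire-/- goes with an mTEClo array of 5.87, above the other mTEClo arrays. Cyp11a1 read 5.75 to 6.52 in wild-type mTEChi and 4.81 and 4.91 in wild-type mTEClo, a difference of 1.22 (SE 0.363, limma adjusted p = 0.181), while its dimmer probe set differed by -0.48. Cyp11b1, Cyp11b2 and Cyp21a1 differed by -0.45 to 0.38.

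Cyp3a13, a form of intestine and liver, read 6.52, 6.44, 6.31 and 6.05 in wild-type mTEChi and 4.06 and 3.51 in wild-type mTEClo. The difference was 2.55 (SE 0.258, limma adjusted p = 0.00492), and it kept its call when any mTEChi array was left out. Cyp3a25 read 7.45, 7.77, 6.96 and 7.23 against 5.48 and 6.30, a difference of 1.46 (SE 0.226, limma adjusted p = 0.0191, and 0.0669 without Aire+/+ replicate 2). For Cyp3a25 the 2 lines differed in size, with 2.13 in Aire+/+ and 0.80 in Brg1+/+. Of the 7 Cyp3a genes, 6 lay above 0 and the median was 0.81. Cyp3a44 reached 1.37 (SE 0.441) on overlapping arrays and passed with the block (limma adjusted p = 0.025).

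Cyp1a2 read 7.50, 7.53, 7.45 and 7.69 in wild-type mTEChi and 5.51 and 6.03 in wild-type mTEClo, a difference of 1.77 (SE 0.256, limma adjusted p = 0.015, and 0.0518 without Aire+/+ replicate 2). The wild-type mTEChi arrays lay within 0.24 of each other, and no mTEClo array came within 1.42 of them. In Aire-/- cells the fractions did not separate, with 5.56 and 4.89 in mTEChi and 5.76 in mTEClo. Cyp1a1 read 4.90 to 5.54 over all 12 arrays, with no separation by fraction.

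Cyp2a5 read 7.31, 7.33, 6.80 and 7.15 in wild-type mTEChi, against 6.74 in Aire+/+ mTEClo and 4.46 in Brg1+/+ mTEClo. Both mTEClo arrays lay below all 4 mTEChi arrays, but they were 2.28 apart. The difference was 1.55 (SE 0.208, limma adjusted p = 0.012), made of 0.58 in the Aire+/+ line and 2.52 in the Brg1+/+ line. The SE and p come from mTEChi replicates alone, so they do not measure the gap between the mTEClo arrays or between the lines. Cyp2a4 read 7.25 to 7.90 against 6.54 and 6.34, a difference of 1.15 (SE 0.382, limma adjusted p = 0.244), and Cyp2a12 differed by 1.13 (SE 0.348). Cyp2a22, the fourth Cyp2a gene, went the other way, by -0.65 on arrays that did not overlap.

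Cyp2d9 read 7.22, 7.45, 6.84 and 7.56 in wild-type mTEChi and 5.97 and 4.61 in wild-type mTEClo. The difference of 1.98 (SE 0.414) had a limma adjusted p of 0.059, and of 0.0327 with the block, 0.0449 after quantile normalization and 0.0469 without dim genes. Cyp2c65 was higher by 1.90 (SE 0.512, limma adjusted p = 0.136) and Cyp2c37 by 1.60 (SE 0.611, limma adjusted p = 0.324), both on arrays that did not overlap. Cyp2c37 also moved with the array number, at 4.42 and 4.06 in wild-type mTEChi arrays numbered 1 and 3.17 and 2.55 in those numbered 2. With the block its difference was 2.23 (limma adjusted p = 0.00104). Cyp26a1 was higher by 1.25 (SE 0.374) on overlapping arrays and passed with the block (limma adjusted p = 0.019). Its mTEClo arrays read 3.85 and 5.88, so nearly all of the difference came from the Aire+/+ line, with 2.11 against 0.39 in Brg1+/+.

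Fewer P450 genes were lower in mTEChi. Cyp20a1 read 5.49, 5.51, 5.21 and 5.63 in wild-type mTEChi and 6.41 and 6.07 in wild-type mTEClo, a difference of -0.78 (SE 0.237, limma adjusted p = 0.192, and 0.0298 with the block). Its arrays did not overlap between the fractions in the wild types. Cyp1b1, Cyp2a22, Cyp4a29, Cyp4b1 and Cyp4f17 were the others on arrays that did not overlap, with differences between -0.65 and -0.47. Among fatty acid hydroxylases, Cyp4f15 was higher by 0.85 (SE 0.251, limma adjusted p = 0.178), and 10 of the 20 lay above 0. In bile acid, cholesterol and vitamin D metabolism, the largest difference was that of the sterol hydroxylase Cyp27a1 at 0.89, which moved with the array number. It read at most 5.80 in the mTEChi arrays numbered 1, 6.22 to 6.83 in those numbered 2, and 4.88 to 5.10 in mTEClo, where all arrays are numbered 1.

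Loss of Brg1 in mTEChi gave no P450 gene past the test, and the largest differences were a 1.80-fold higher level of Cyp3a59 and a 1.72-fold lower level of Cyp3a44. Cyp3a44 read 5.52 and 3.77 with Brg1 and 3.98 and 3.75 without it, on overlapping arrays. Its difference was -1.54 in number 1 and -0.02 in number 2, so it rested on 1 wild-type array. At least 2-fold lower or higher were 0 P450 genes, where 0.469% and 0.293% of all genes were. By limma 0 P450 genes were lower and 0 were higher, as were 0% of all genes, with and without the block. At an unadjusted p under 0.05, 1 was lower (Cyp1a2) and 1 was higher (Cyp3a59), where 0.709% and 0.65% of all genes were. On arrays that did not overlap, 12 were lower (12.4%, against 9.62% of all genes) and 14 were higher (14.4%, against 9.77%). The median difference was -0.05 over the P450 genes and 0 over all genes.

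Cyp1a2 read 7.45 and 7.69 with Brg1 and 6.99 and 6.68 without it. The knockout arrays lay below the wild-type arrays but above every mTEClo array, and the difference was -0.74 (SE 0.296, limma adjusted p = 1). Cyp3a59 read 4.36 and 4.60 against 5.09 and 5.57, a difference of 0.85 (SE 0.285, limma adjusted p = 1), with both knockout arrays above both wild-type arrays. Cyp2d10 read 5.56 and 5.39 against 6.85 and 5.61 (0.76, SE 0.451), and Cyp2d9 read 6.84 and 7.56 against 7.99 and 6.53, with overlapping arrays and a difference of 0.06. Cyp3a13 was lower by -0.63 (SE 0.298), Cyp2a12 by -0.70 (SE 0.402), Cyp2a5 by -0.53 (SE 0.240) and Cyp2d11 by -0.63 (SE 0.376), each on arrays that did not overlap. Cyp2c38 and Cyp11b2 were higher by 0.62 and 0.55, also without overlap. Cyp17a1 read 7.30 and 6.95 against 7.83 and 6.52, and Cyp26a1 read 6.56 and 5.97 against 7.28 and 6.46, both on overlapping arrays.

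The difference between the Brg1 effect and the Aire effect in mTEChi was tested as an interaction, and 0 P450 genes passed by limma in either direction, with or without the block, where 0.135% of all genes passed as higher and 0% as lower (0.844% and 0.0632% with the block). At an unadjusted p under 0.05, 7 were higher (2.67% of all genes) and 0 were lower (1.01%). The effects differed by at least 2-fold upward in 9 P450 genes (3.97% of all genes) and downward in 1, Cyp26a1 (1.65%). Cyp2d10 had the smallest p, with a difference between effects of 2.73 (SE 0.638, limma adjusted p = 0.39, and 0.0732 with the block). Cyp1a2 followed with 1.56 (SE 0.418, limma adjusted p = 0.563), and Cyp2d9 with 2.29 (SE 0.676, limma adjusted p = 0.707). The genes Cyp11b1, Cyp2d10, Cyp2d40, Cyp3a25 and Cyp3a59 were lower without Aire and higher without Brg1 on arrays that did not overlap in either line. For Cyp3a25 the differences were -0.59 and 0.54, and for Cyp2d40 -0.26 and 0.50. Without the block 0 of these 5 genes passed in either line, and with it Cyp2d10 passed in the Aire line. On arrays that did not overlap in either line, Cyp1a2, Cyp1b1, Cyp2a5, Cyp2d11, Cyp3a13 and Cyp4f18 were lower in both. Cyp26c1 was higher without Aire and lower without Brg1 on such arrays. The share of all genes with each of these patterns was not computed, so no opposition of the 2 lines is read from them.

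**Figure D3:**
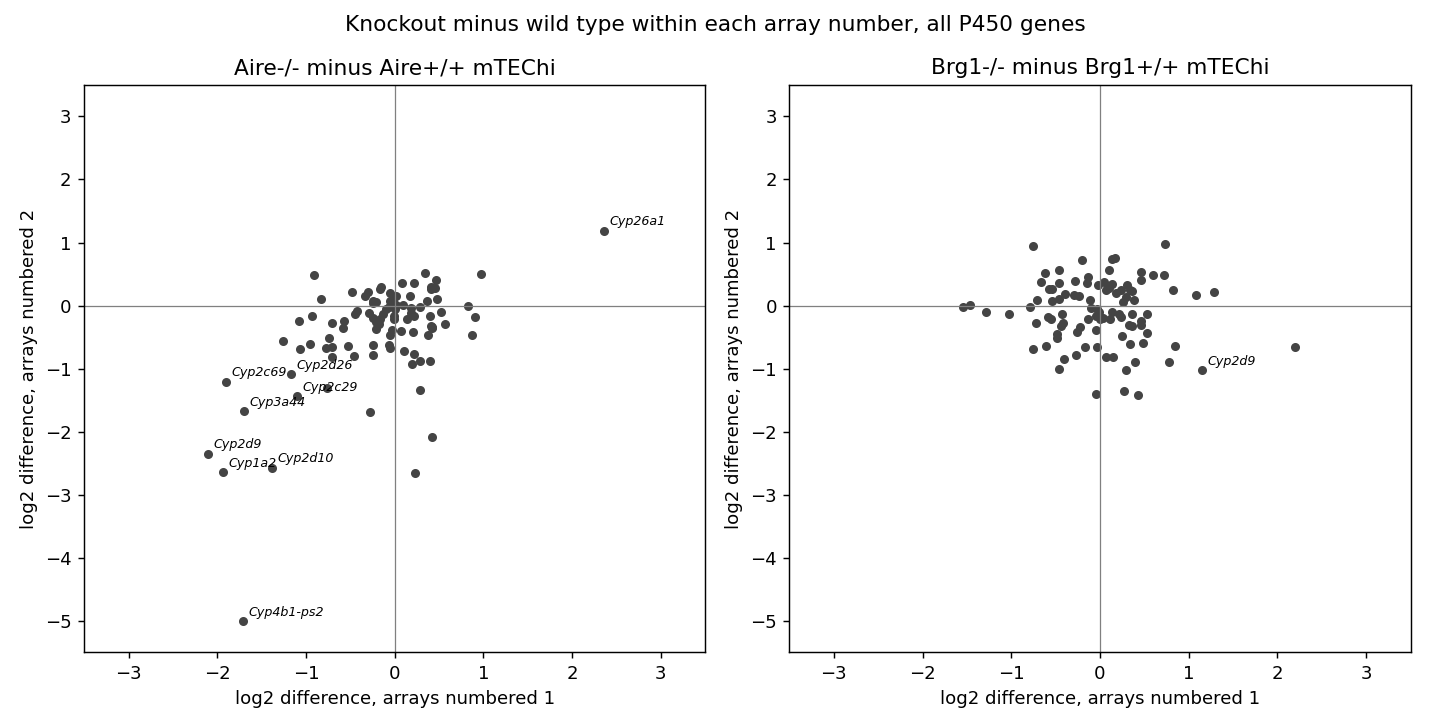
Knockout minus wild type within the arrays numbered 1 (horizontal, log2) and within those numbered 2 (vertical, log2) for the 97 P450 genes, in the Aire line (left) and the Brg1 line (right). Cyp1a2, Cyp2d9, Cyp2d10 and Cyp26a1 lie off 0 in the same direction in both numbers of the Aire line, whereas Cyp2d9 changes sign between the numbers of the Brg1 line.

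Array number gave a further view of how far the effects repeat. Across the 97 P450 genes, the Aire effect within number 1 and that within number 2 had a Pearson r of 0.546 (Spearman rho 0.361), and the Brg1 effects an r of -0.10 (rho -0.056). Over all genes r was 0.645 for Aire and -0.0072 for Brg1. These correlations run across genes, which are not independent replicates, and the arrays of a number may share processing. Cyp1a2 differed by -1.94 and -2.64 in the Aire line and by -0.46 and -1.01 in the Brg1 line. Cyp2d9 differed by -2.10 and -2.35 in the Aire line and by 1.15 and -1.03 in the Brg1 line. Between numbers themselves, 14 P450 genes were lower in all 4 mTEChi arrays numbered 2 than in all 4 numbered 1 (14.4%, against 20.7% of all genes) and 9 were higher (9.28%, against 10.9%). Cyp4f13 read 4.24 to 4.79 in number 1 and 5.70 to 6.18 in number 2, and Cyp2c68 read 3.70 to 4.25 in number 1 and 2.40 to 3.11 in number 2.

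In mTEClo each genotype had 1 array, and its error was taken from the mTEChi groups. Loss of Aire gave 0 P450 genes past the limma test, as for 0% of all genes (0.0135% lower with the block), with 1 lower (0.921% of all genes) and 1 higher (0.424%) at an unadjusted p under 0.05. At least 2-fold lower was 1 (1.54% of all genes), Cyp2a5, and 3 were higher (0.578%), Cyp17a1, Cyp26a1 and Cyp2b23. Cyp2a5 read 6.74 in Aire+/+ and 5.43 in Aire-/- mTEClo, a difference of -1.31 (SE 0.339, limma adjusted p = 1). Cyp26a1 read 3.85 in Aire+/+ and 5.51 in Aire-/- mTEClo, a difference of 1.66 (SE 0.611, limma adjusted p = 1), and so stood on the same side as in mTEChi. Cyp1a2 read 5.51 and 5.76. The test of the Aire effect in mTEChi minus that in mTEClo passed for 0 P450 genes (and 0% of all genes, or 0.271% as lower and 0.0135% as higher with the block). The smallest p was that of Cyp1a2, at -2.54 (SE 0.513, limma adjusted p = 0.519). At an unadjusted p under 0.05, 3 were lower (1.83% of all genes) and 0 higher (0.636%), and 13 were at least 2-fold lower (4.04%) and 1 higher (2.29%). Loss of Brg1 in mTEClo also gave 0 calls (0% of all genes), with 1 lower (0.822% of all genes) and 0 higher (0.903%) at an unadjusted p under 0.05. At least 2-fold lower were 0 (1.25% of all genes) and higher 3 (1.45%), Cyp2d9, Cyp2d10 and Cyp39a1. Cyp3a25 read 6.30 with Brg1 and 5.32 without it, and Cyp2d9 read 4.61 with Brg1 and 6.03 without it.

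**Figure D4:**
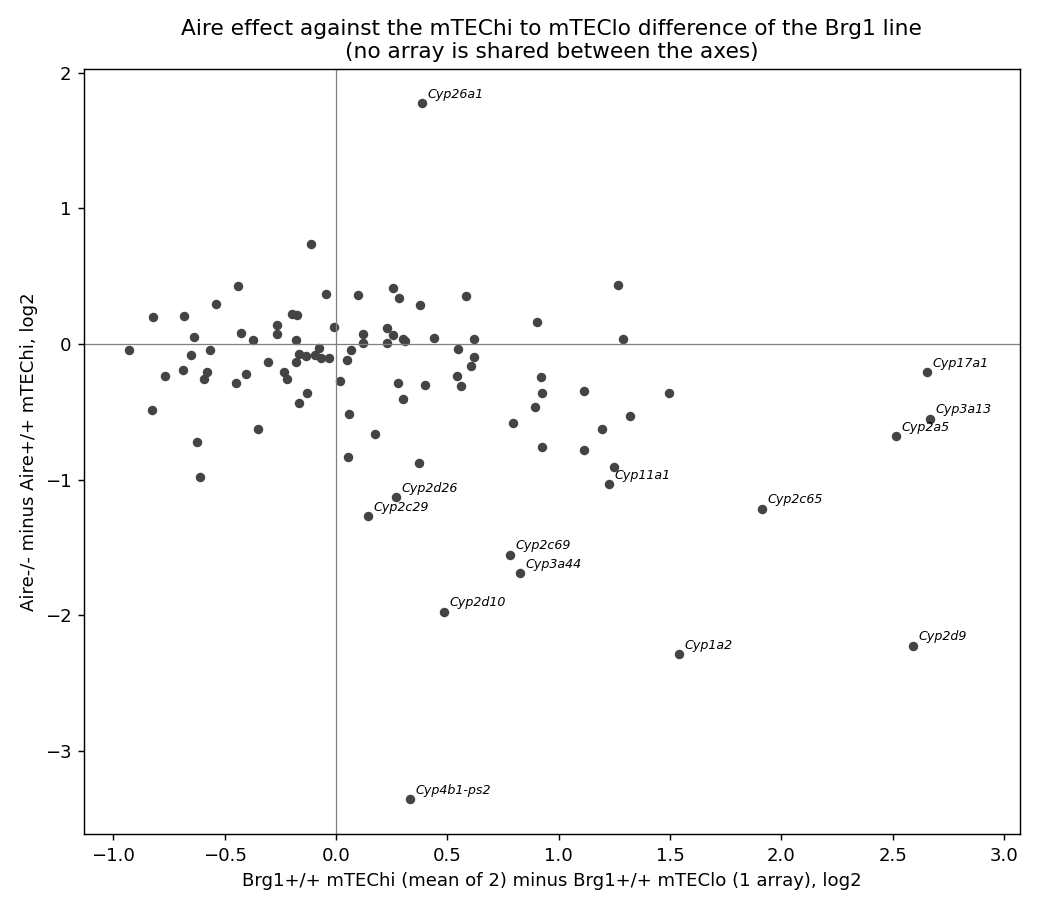
Aire-/- minus Aire+/+ mTEChi (vertical, log2) against Brg1+/+ mTEChi (mean of 2 arrays) minus Brg1+/+ mTEClo (1 array; horizontal, log2) for the 97 P450 genes. The axes share no array. Cyp2d9, Cyp1a2 and Cyp2c65 lie at the lower right, Cyp17a1 and Cyp3a13 at the right near or just below 0, and Cyp26a1 at the top.

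The Aire effect was set beside the difference between mature and MHC class II-low cells in mice of the other line, gene by gene. No test compared the Aire effect between genes. Across the 97 genes, the Aire effect in mTEChi and the Brg1+/+ difference between mTEChi and mTEClo, which share no array, had a Pearson r of -0.347 (Spearman rho -0.326), and over all genes -0.333 (rho -0.103). The mTEClo array is numbered 1, so array number enters the Brg1+/+ difference. With only arrays numbered 1 in that difference, r was -0.257 (rho -0.26) over the P450 genes and -0.362 (rho -0.065) over all genes. Cyp2d9 was 2.59 higher in Brg1+/+ mTEChi than in Brg1+/+ mTEClo and 2.23 lower without Aire. Cyp1a2 was 1.54 higher and 2.29 lower. Cyp2c65 was 1.92 higher and 1.22 lower, but its Aire difference was 0.23 in number 1 and -2.66 in number 2, so it rested on 1 knockout array. In Cyp17a1 the maturation difference was 2.66 and the Aire difference -0.21, in Cyp3a13 they were 2.67 and -0.55, and in Cyp2a5 2.52 and -0.68. Cyp26a1 was 0.39 higher in Brg1+/+ mTEChi and 1.78 higher without Aire. The mTEChi to mTEClo differences of Aire+/+ and Brg1+/+ mice had an r of 0.648 over the P450 genes and 0.721 over all genes.

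Genes that work with P450 enzymes were followed as lists. Conjugating enzymes, which add sulfate, glucuronide or glutathione to oxidised substrates, had 27 measured members, of which 1 fell without Aire in mTEChi, where 0.772% of all genes fell, and 4 with the block, where 2.1% did. The member that fell was the oestrogen sulfotransferase Sult1e1, which read 7.94 and 7.84 with Aire and 5.75 and 5.23 without it (-2.40, SE 0.351, limma adjusted p = 0.0321). The glucuronosyltransferase Ugt2b36 read 6.73 and 8.33 against 2.54 and 4.75 (-3.89, SE 1.04, limma adjusted p = 0.307, and 0.00351 with the block). In wild-type mTEChi against mTEClo, 6 of the 27 rose, where 1.93% of all genes did, and 0 fell, where 0.632% did. Ugt2b5 rose by 3.87, Ephx2 by 2.68, Sult1c2 by 2.22, Sult1e1 by 2.22, Sult2a1 by 1.54 and Gsta3 by 1.16. The size of the Ugt2b5 rise is uncertain, since its mTEClo arrays read 5.53 in Aire+/+, 2.00 in Brg1+/+ and 6.10 in Brg1-/-. The median of this list was -0.66 without Aire and 0.67 for maturation.

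Of 16 flavin monooxygenases and other oxidases, 0 passed for Aire (Fmo2 passed as lower with the block, at -1.59), and Adh7, a stomach alcohol and retinol dehydrogenase, rose with maturation by 1.50 (SE 0.228, limma adjusted p = 0.0181). With the block, Adh1 was also called lower in mTEChi. Of the 21 receptors and factors that control P450 genes, 0 passed in any of the Aire, Brg1 and maturation comparisons. The small heterodimer partner Nr0b2, which represses bile acid synthesis, read 6.41 and 7.12 with Aire and 4.85 and 5.51 without it (-1.59, SE 0.419, limma adjusted p = 0.294, and 0.0227 with the block). With the block, Nr0b2 was also called higher and Rarb lower in wild-type mTEChi than in mTEClo. The aryl hydrocarbon receptor Ahr, which induces Cyp1a genes, differed by 0.19 (SE 0.338) without Aire. Redox partners (7 measured), heme synthesis (7) and steroid synthesis partners (11) had 0 calls in these 3 comparisons, and so did Cyp51, Tbxas1 and Ptgis, 3 P450 enzymes outside the naming rule, of which Cyp51 rose with maturation with the block only (1.21, limma adjusted p = 0.0281). For Brg1, 0 genes of these lists passed, where 0% of all genes did.

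Markers of other cells were read beside these results. The summed level of 10 hepatocyte markers was 10.75 to 11.11 in Aire+/+ mTEChi, 10.03 to 10.16 in Aire-/- mTEChi, 10.12 to 10.45 in Brg1+/+ mTEChi, 9.97 to 10.25 in Brg1-/- mTEChi and 8.97 to 9.43 in mTEClo. Of the 10, 0 passed for Aire (0.772% of all genes fell) or Brg1. In wild-type mTEChi, 2 (Apoa2 and Ttr) were higher than in mTEClo, as were 1.93% of all genes. These 2 are the brightest members, and the sum follows them. The list median was -0.56 without Aire. For wild-type mTEChi against mTEClo it was 0.13, with Tat, Cps1 and Ahsg below 0. Alb read 6.80 and 7.24 with Aire and 5.72 and 6.25 without it, and Ahsg lay between 4.45 and 5.59 on all arrays. So this list stood on the same side as Cyp1a2 in the Aire comparison, and its part in the result was not tested. For adrenal and gonadal steroid cells, 6 markers summed to 7.58 to 8.17 over the 12 arrays. Within the Aire line they summed to 7.89 to 7.96 in Aire+/+ mTEChi, 7.73 in both Aire-/- mTEChi arrays, and 8.01 and 8.17 in mTEClo, and 0 of the 6 passed in any of the 3 comparisons. Nr5a1, the defining factor of these cells, lay between 4.63 and 5.28, while Cyp17a1 spanned 4.47 to 7.83. Fibroblast and endothelial markers (10 measured, 0 called for Aire) summed to 9.95 to 10.08 in Aire+/+ and 10.69 to 10.72 in Aire-/- mTEChi. This sum follows its brightest member, Dcn, which read 9.49 and 9.22 with Aire and 10.23 and 10.24 without it. Lum was also higher, by 1.39, whereas Pdgfra, Cdh5, Col3a1 and Pecam1 lay below 0. The list median was 0.10, so the markers did not shift together. Tuft cell markers (6 measured, 3 lower in wild-type mTEChi, as were 0.632% of all genes) summed to 9.04 to 9.85 in mTEChi and 11.50 to 11.99 in mTEClo. Cortical epithelial markers (6 measured, 0 called) summed to 8.99 to 9.80 in mTEChi and 10.15 to 10.89 in mTEClo. This sum follows its brightest member, Ctsl, which was lower in wild-type mTEChi by -1.42, and Cxcl12 differed by -0.97. Prss16 differed by -0.11, while Psmb11, Ly75 and Dll4 were higher by 0.29, 0.69 and 0.19. The list median was 0.04, so the markers did not shift together. Markers of dendritic cells, macrophages and B cells (11 measured, 0 called) summed to 10.27 to 11.09 in mTEChi and 9.91 to 10.09 in mTEClo. This sum follows its brightest members, Lyz2 and Cd79b, which were higher in wild-type mTEChi by 1.06 and 0.32. Ptprc and Itgax lay below 0, at -0.93 and -0.20, and the list median was 0.315. Thymocyte markers (8 measured, 0 called) summed to 8.87 to 11.16 in mTEChi, highest in a Brg1-/- array, and to 8.34 to 8.69 in mTEClo. The part of these cells in the P450 differences was not tested.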

How the data were processed

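RNA of sorted mTECs was measured on 12 Affymetrix arrays. The deposited table gives 1 linear intensity for each of 33732 probe sets per array. Expression Console and Transcriptome Analysis Console of Affymetrix are named with RMA, without versions, per the submitters' processing notes. The sources do not say if the arrays were normalized as one set. RMA compresses differences of dim probe sets. Probe sets with 1 gene symbol in the platform annotation (23491) were used. Those with several symbols (1811) or none (8430) were left out, among them 6 with a P450 symbol. The brightest probe set was kept per gene, which left 22154 genes.

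Intensities were log2 transformed without pseudocount or further normalization. Fits used limma 3.58.1 in R 4.3.3 (lmFit and eBayes): 1 model of 8 group means over 12 arrays, 4 residual degrees of freedom, two-sided, adjusted p under 0.05 over 22154 genes. SE is limma's moderated standard error. Lone mTEClo arrays were assumed to vary like mTEChi arrays. The number of arrays limits the precision.

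Array numbers come from the sample titles. Deviations of same-numbered mTEChi arrays from their group means correlated in all 6 pairs of the 4 groups (r 0.552 to 0.657), so the numbers were treated as pairing. What a number stands for is not given, and all mTEClo arrays are numbered 1. The alternative fit that blocks on the number, separately in each line, has 2 residual degrees of freedom. Other alternatives were a block common to both lines, median centring, quantile normalization, a filter on dim genes, the mean of a gene's probe sets, mTEChi arrays alone and leaving out each mTEChi array.

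The P450 genes, lists and tests were chosen with earlier results of these data known. P450 genes are named that passed a test, had 1 of the 8 largest differences on non-overlapping arrays in a main comparison, were among the 10 brightest, or had 1 of the 4 smallest p-values of their role. For lists of other genes, up to 4 per comparison and all that passed may be named. Other genes mentioned were chosen after their values were seen. The steps were tested on simulated arrays of the Aire comparison over 22154 genes: the percent of 50 changed genes recovered was 0, 16, 82 and 94 at log2 sizes of 1, 2, 3 and 5, with 0 false calls, and 8, 90, 100 and 100 with the block, with 9 false calls. The simulated arrays took their number effect and their error from the fit with a common block. The better recovery with the block was therefore built in, and does not show that the block suits these data. Promoters came from RefSeq (GRCm38.p6, 250 bases before to 50 after the start).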

Additional observations from a re-analysis of the deposited data

How the results depend on the processing

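With the replicate block within each line, the number of P450 genes called lower without Aire in mTEChi went from 1 to 3 and the number called higher from 0 to 1. For wild-type mTEChi against mTEClo, the number called higher went from 5 to 9 and the number called lower from 0 to 1. With a block common to both lines, these numbers were 4, 1, 11 and 1. Over all genes the within-line block moved the calls from 171 lower and 5 higher to 465 and 66 for Aire loss, and from 140 and 427 to 552 and 982 for mTEChi against mTEClo. The block changed no call of a P450 gene in the Brg1, mTEClo and interaction comparisons. Median centring, quantile normalization, the filter on dim genes, the mean over probe sets and, where it applies, mTEChi arrays alone kept every count of P450 genes within 1.5 times. Over all genes, quantile normalization moved the number higher without Aire from 5 to 8, and median centring moved the number higher in the difference between the Brg1 and Aire effects from 30 to 48.

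Leaving out each mTEChi array in turn gave 0 to 2 P450 genes lower without Aire and 3 to 6 higher in wild-type mTEChi. Over all genes the numbers moved too, from 171 to between 53 and 177 lower and from 5 to between 0 and 7 higher without Aire, from 427 to between 256 and 383 higher and from 140 to between 48 and 93 lower in mTEChi, and from 30 to between 4 and 28 for the Brg1 minus the Aire effect. The lowest were without Aire+/+ replicate 1 for Aire loss, without Aire+/+ replicate 2 (higher) or 1 (lower) for mTEChi, and without Aire+/+ replicate 2 or either Brg1-/- replicate for the effect difference. Without Brg1+/+ replicate 2, 1 gene that is no P450 gene was higher without Brg1. Some named genes changed sign in a comparison in which they passed no test. For Aire loss their lowest and highest differences were -0.58 and 0.16 for Cyp17a1, -0.13 and 0.29 for Cyp26b1, -0.25 and 0.08 for Cyp20a1, -0.15 and 0.87 for Cyp39a1, and -0.03 and 0.60 for Cyp7b1. For Brg1 loss they were -0.40 and 0.10 for Cyp27b1, -0.14 and 0.73 for Cyp21a1, -0.37 and 0.01 for Cyp24a1, and -1.04 and 0.045 for Cyp11a1. For mTEChi against mTEClo they were -0.028 and 0.12 for Cyp26c1.

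Groups of 1 or 2 arrays leave few degrees of freedom, so differences near 2 on the log2 scale passed in some fits only. Dim probe sets, for which no detection call was used, limit what can be said of 52 genes with a mean under 5.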

Other observations

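Probe sets shared by several P450 genes were outside the 97 genes. A pair of them, each annotated to Cyp3a41a, Cyp3a41b, Cyp3a11 and Cyp3a44, read 6.41 and 5.85, and 6.59 and 5.80, in Aire+/+ mTEChi. In Aire-/- mTEChi they read 3.95 and 4.60, and 3.92 and 4.42. Both lay lower in both knockout arrays, by -1.86 (SE 0.350, limma adjusted p = 0.1 over all 33732 probe sets) and -2.03 (SE 0.373, limma adjusted p = 0.0883). In wild-type mTEChi against mTEClo they were higher by 1.57 and 1.61 (limma adjusted p = 0.0548 and 0.0621). The probe set of Cyp3a11 alone differed by 0.34 without Aire, and that of Cyp3a44 alone by -1.69. The other 4 shared probe sets, of Cyp2c67 and Cyp2c68, Cyp4a10 and Cyp4a31, Cyp4a32 and Cyp4a10, and Klkb1 and Cyp4v3, differed by -0.98 to 0.36 without Aire.

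The dimmer of the Cyp2c55 probe sets read 3.46 and 4.89 with Aire and 3.30 and 3.01 without it, a difference of -1.02 (SE 0.446, limma adjusted p = 1), against -0.03 in the brighter one.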
